A study of Mus musculus with 2 samples.

Results

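Ccr7, Ccl17, Ccl22, Ccl5, Fscn1, Ccr1, Ccr2, Cx3cr1 and Cxcr4 are 9 of the 32285 genes measured in single cells from mouse dorsal skin. They were chosen by symbol, as the genes that dendritic cells use when they mature and leave the skin and as the chemokine receptors of monocytes and macrophages, and all 9 were detected. The cells came from wild-type (WT) male mice of 9 weeks or 108 weeks, with the cells of 2 mice pooled into 1 library at each age, and were sorted as positive for the macrophage surface protein F4/80 and high for MHC class II. A barcode suffix, 1 or 2, separates the 2 libraries, but no source used here links either suffix to an age, and ages were therefore not compared. The libraries are given side by side as the library with suffix 1 and the library with suffix 2. Since each age had 1 library and cells are not replicates, no p-value was computed. All intervals are exact 95% intervals that cover counting error only.

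Chemokines are small secreted proteins that attract leukocytes through receptors on the cell surface, and the set of receptors on a cell decides which gradients it can follow. Dendritic cells of the skin take up antigen, mature, and then travel through lymphatic vessels to the draining lymph node along a gradient of the CCR7 ligands CCL19 and CCL21. Monocytes leave the blood and enter tissue largely through CCR2, and lose this receptor to a varying degree as they become macrophages.

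The filter left 3797 cells, 2396 with suffix 1 and 1401 with suffix 2, with a median of 10870 UMIs (distinct RNA molecules) per cell and 50800888 UMIs in all. No barcode sequence was shared by the libraries among these cells. Although the labels call the sorted cells macrophages, 1759 cells lay outside the myeloid compartment, mostly as fibroblast-like, endothelial-like and pericyte-like cells. The other 2038 cells, 1594 with suffix 1 and 444 with suffix 2, were clustered without the 9 genes and without 55 related genes, and the clusters were named from marker genes. Of these myeloid cells, 825 were macrophage-like, 288 monocyte-like, 85 dermal dendritic-like and 21 mature dendritic-like, and 819 lay in 7 clusters that took no name. No cluster took the Langerhans name. The cluster numbers used below (M0 to M16) only name the 17 myeloid clusters.

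The mature dendritic-like group rested on 14 of 15 markers at 20 CPM (UMIs per 1000000 UMIs of the group) or more, with Apol7c at 1261 CPM and Il4i1 at 1064 CPM. The macrophage marker C1qa was at 6.80 CPM in it, against 1990 CPM in macrophage-like cells, and the F4/80 gene Adgre1 was at 64.6 CPM, against 440 CPM. The dermal dendritic-like group showed 11 of 12 markers of its list at that level, among them Mgl2 at 2075 CPM and Cd209a at 758 CPM, while Cd207 and Epcam were at 0. Monocyte-like cells showed 8 of 10 monocyte markers and macrophage-like cells 10 of 10 macrophage markers. The monocyte-like cells also carried 10 of 10 macrophage markers, and S100a9 and S100a8 of the neutrophil list led 1 of their 2 clusters (M8).

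The genes were placed with the GENCODE vM21 annotation of GRCm38, the build that mm10 also names. Ccr7 (chr11:99144196-99155077) and Ccl5 (chr11:83525778-83530518) lie on chromosome 11, minus strand, and Fscn1 (chr5:142960343-142973185) on the plus strand of chromosome 5. Ccl22 (chr8:94745590-94751699) and Ccl17 (chr8:94810453-94812036) lie on the same strand of chromosome 8, 58.8 kb apart with only the coding gene Cx3cl1 between them. Ccr1 (chr9:123962124-123968692), Ccr2 (chr9:124101950-124113557) and Cx3cr1 (chr9:119901616-120069879) lie on chromosome 9, and Cxcr4 (chr1:128588199-128592293) on chromosome 1. All 9 are protein-coding. The annotated Cx3cr1 gene spans 168264 bases and overlaps 3 other genes of its strand (Gorasp1, Csrnp1 and Xirp1), and its level is uncertain wherever reads fall on sequence shared with them.

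RefSeq promoters (GRCm38.p6, 250 bases before to 50 after the start of transcription) were found for 7 of the 9 genes. The 3 shown are those of genes with their highest level in the same 21 mature dendritic-like cells, as given further on. Each is printed from 5′ to 3′ on the plus strand, with capitals for any match to TATAAA. The other motifs searched, on both strands, were the NF-kappaB consensus and GAAA repeated 2 bases later, part of the interferon-stimulated response element.
Ccl22, chr8:94745434-94745733: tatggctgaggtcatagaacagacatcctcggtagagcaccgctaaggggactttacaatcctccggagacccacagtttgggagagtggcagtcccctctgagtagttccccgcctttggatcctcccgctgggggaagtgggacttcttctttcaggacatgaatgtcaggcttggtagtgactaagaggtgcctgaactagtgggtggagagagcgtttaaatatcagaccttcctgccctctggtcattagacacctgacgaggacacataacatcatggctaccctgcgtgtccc
Ccl17, chr8:94810203-94810502: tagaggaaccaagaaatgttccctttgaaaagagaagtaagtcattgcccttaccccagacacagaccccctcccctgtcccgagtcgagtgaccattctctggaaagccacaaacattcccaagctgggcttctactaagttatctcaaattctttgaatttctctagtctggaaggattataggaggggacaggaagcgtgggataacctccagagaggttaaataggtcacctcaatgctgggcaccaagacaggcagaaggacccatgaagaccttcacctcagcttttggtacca
Fscn1, chr5:142960105-142960404: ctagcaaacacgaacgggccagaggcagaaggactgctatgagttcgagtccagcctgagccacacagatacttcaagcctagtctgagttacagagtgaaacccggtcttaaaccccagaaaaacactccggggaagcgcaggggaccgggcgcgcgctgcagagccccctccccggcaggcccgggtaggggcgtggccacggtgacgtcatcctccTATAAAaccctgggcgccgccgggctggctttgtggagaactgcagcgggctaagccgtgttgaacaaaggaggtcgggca
The NF-kappaB consensus was found in none of the 7 promoters and in 4.51% of all 32851 promoters of the table, and the repeated GAAA in none of the 7 and in 3.44% of all. TATAAA was found at 31 bases before the start in Fscn1 and at 30 and 32 bases before it in Cxcr4, where the matches on the 2 strands overlap, and in 13.6% of all promoters. The Fscn1 promoter held 21 CG steps and the Cxcr4 promoter 20, against a median of 7 over all promoters, while Ccl22 held 8 and Ccl17 held 3. The 3 promoters shown thus share no match to the motifs searched, which describes these windows alone.

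Ccr7 was by far higher in mature dendritic-like cells than in any other group. Its receptor protein steers mature dendritic cells to lymphatic vessels. The level was 3951 CPM (3727 to 4185) in mature dendritic-like, 147 CPM (125 to 171) in dermal dendritic-like, 38.9 CPM (33.8 to 44.6) in monocyte-like and 14.2 CPM (11.8 to 17.0) in macrophage-like cells. In the library with suffix 1 these values were 4041, 131, 26.6 and 15.7 CPM, and in the library with suffix 2 they were 3579, 175, 66.8 and 8.65 CPM. The order was the same in both libraries and no 2 neighbours in it had overlapping intervals, although 1 cell held 80 of the 206 monocyte-like UMIs and 1 cell 59 of the 123 macrophage-like UMIs. Under a stricter filter on cells the dermal dendritic-like place in this order was lost, as given further on. Over the other myeloid cells, mature dendritic-like cells were higher by 5.92 on the log2 scale (5.81 to 6.03). All 21 cells held a Ccr7 UMI, with a lowest value of 3, a median of 62 and a highest value of 116 UMIs.

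Fscn1 encodes fascin, which bundles actin filaments in the long processes of mature dendritic cells. It was at 1629 CPM (1486 to 1781) in mature dendritic-like cells, with 1547 CPM in the library with suffix 1 and 1963 CPM in the library with suffix 2. The levels elsewhere in the named groups were 23.3 CPM (15.2 to 34.2) in dermal dendritic-like, 2.83 CPM (1.59 to 4.67) in monocyte-like and 1.74 CPM (0.973 to 2.87) in macrophage-like cells. The last 2 have overlapping intervals. The log2 ratio of mature dendritic-like over the other myeloid cells was 9.17 (8.81 to 9.55), the highest of the 9 genes. Outside the myeloid compartment Fscn1 was at 124 CPM in endothelial-like, 117 CPM in Schwann-like and 43.0 CPM in keratinocyte-like cells, and all cells outside that compartment together held 71.7% of its UMIs. Pericyte or smooth muscle-like cells held 12.1% (235 UMIs in 90 cells) and fibroblast-like cells 12.5% (242 UMIs in 141 cells).

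Ccl22 and Ccl17 encode the ligands of CCR4, a receptor found on T cells of the skin. Ccl22 was at 2492 CPM (2315 to 2679) in mature dendritic-like cells, with 2494 and 2484 CPM in the libraries with suffix 1 and 2, and at 21.5 CPM (13.8 to 32.0) in dermal dendritic-like, 9.06 CPM (6.68 to 12.0) in monocyte-like and 6.37 CPM (4.80 to 8.29) in macrophage-like cells. The interval of monocyte-like cells overlaps that of macrophage-like cells. In dermal dendritic-like cells the libraries gave 1.44 and 55.0 CPM, and 20 of the 24 UMIs came from 1 cell. Mature dendritic-like cells held 55.8% of all Ccl22 UMIs while making up 0.553% of all cells, and their log2 ratio was 6.85 (6.69 to 7.02).

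Ccl17 was at 347 CPM (283 to 421) in mature dendritic-like cells, with 372 and 243 CPM in the libraries with suffix 1 and 2. In dermal dendritic-like, macrophage-like and monocyte-like cells it was at 9.87 CPM (4.93 to 17.7), 1.27 CPM (0.636 to 2.28) and 1.13 CPM (0.416 to 2.47), the last 2 with overlapping intervals. The dermal dendritic-like value was 1.44 CPM at suffix 1 and 23.9 CPM at suffix 2, with 9 of the 11 UMIs in 1 cell. The log2 ratio of mature dendritic-like cells was 3.97 (3.65 to 4.27). Only 9 of the 21 cells held a Ccl17 UMI, and 1 cell held 50 of the 102 UMIs. Without that cell the level was 197 CPM (147 to 258) and the log2 ratio 3.15.

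Ccl5 encodes a ligand of CCR1 and other receptors that is also abundant in cytotoxic lymphocytes. It was at 3665 CPM (3450 to 3891) in mature dendritic-like, 80.8 CPM (73.3 to 88.9) in monocyte-like, 18.9 CPM (16.1 to 22.0) in macrophage-like and 0.897 CPM in dermal dendritic-like cells, where 1 UMI was found in 85 cells. The libraries gave 4168 and 1598 CPM in mature dendritic-like cells, the widest gap between libraries among the 5 genes highest there. One cell with suffix 1 held 367 of the 1078 UMIs, and without it the level was 2501 CPM (2320 to 2692). T or innate lymphoid-like cells, 34 in number, held Ccl5 at 3033 CPM. In the mature dendritic-like cells 11 of the 12 markers of these lymphocytes, Cd3e, Cd3g and Trac among them, were at 0, and the other, Il7r, had 79 UMIs in 15 cells.

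**Figure D1:**
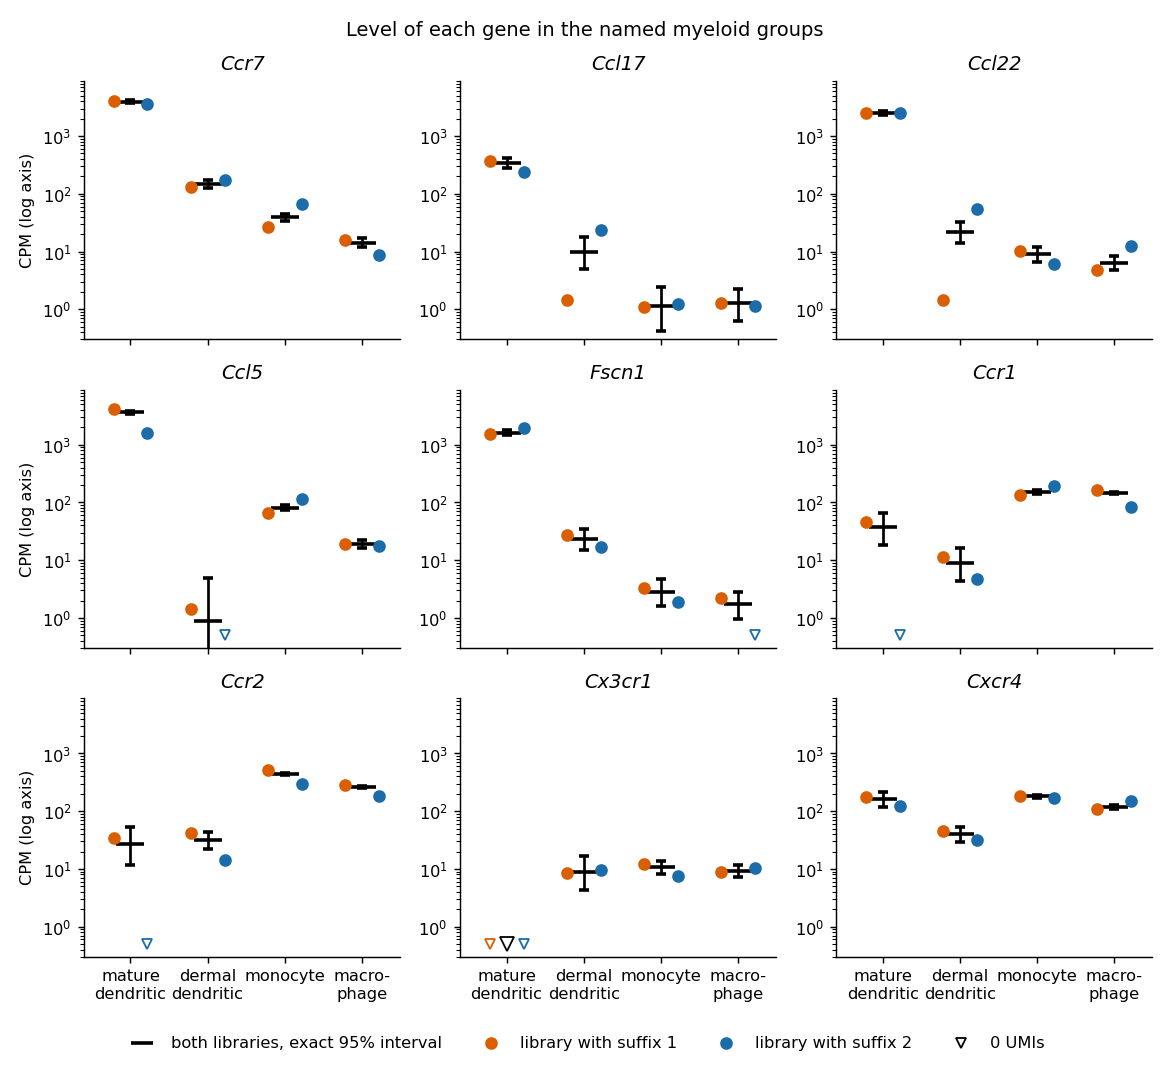
Level of each of the 9 genes (CPM, log axis) in the 4 named myeloid groups, with both libraries pooled (black bar, exact 95% Poisson interval) and each library alone (orange and blue points, open triangles for 0 UMIs). Ccr7, Ccl17, Ccl22, Ccl5 and Fscn1 are highest in mature dendritic-like cells in both libraries, whereas Ccr2 is highest in monocyte-like cells.

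Thus 5 of the 9 genes (Ccr7, Ccl17, Ccl22, Ccl5 and Fscn1) were at least 4-fold higher in mature dendritic-like cells than in the other myeloid cells with the interval above 0, against 3.36% of the 11050 genes with 30 UMIs or more. The same 5 genes were called in each library alone. One gene, Ccr2, was at least 4-fold lower, against 5.2% of all genes. The median log2 ratio was 3.97 over the 9 genes and 0.07 over all genes tested. The group was small, with 16 cells of the library with suffix 1 and 5 of the library with suffix 2. They made up 1.00% (0.575 to 1.62) and 1.13% (0.367 to 2.61) of the myeloid cells of these libraries.

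Within the mature dendritic-like group the 5 genes did not move as 1 unit from cell to cell. All 5 were found together in 7 of the 21 cells and at least 4 of them in 14. Of these Ccr7 cells, 19 also held a Ccl22 UMI, 18 Fscn1, 17 Ccl5 and 9 Ccl17. Per 10000 UMIs of a cell, Ccr7 ranged from 3.13 to 70.0 with a median of 42.7. Ccl5 ranged more widely, from 0 to 374 with a median of 13.6. The cell with the most Ccr7 (116 UMIs) had 102 UMIs of Ccl22 and 28 of Ccl17 but none of Ccl5, and the cell with 367 UMIs of Ccl5 had 67 of Ccr7 and none of Ccl22 or Ccl17. A cell without a UMI may still hold the RNA, since the cells had a median of only 14159 UMIs.

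**Figure D2:**
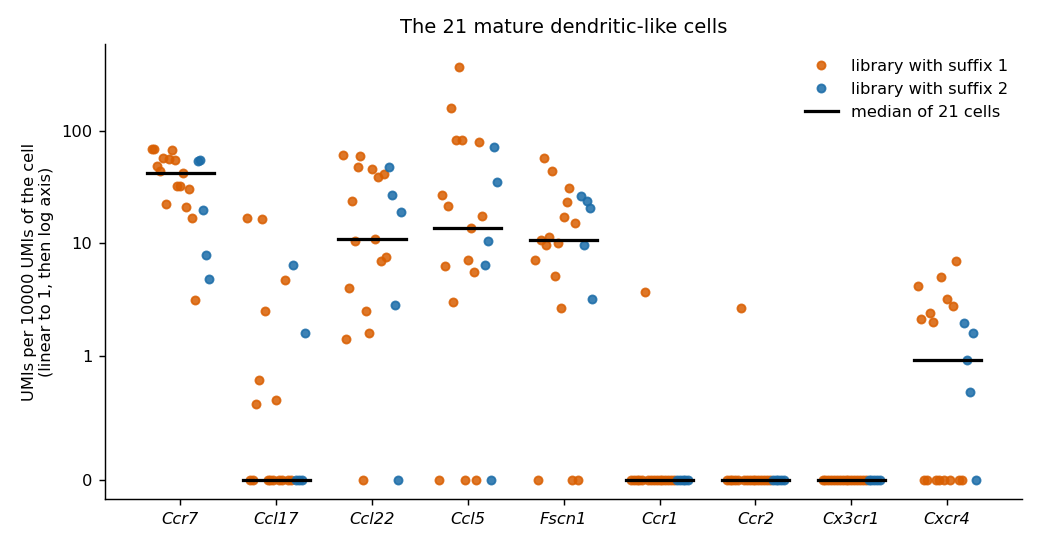
UMIs of each gene per 10000 UMIs of the cell in each of the 21 mature dendritic-like cells, by library, with the median over the cells (black line). The axis is linear up to 1 and logarithmic above. Ccr7 is above 0 in every cell, Ccl17 in 9 of them, and Ccr1 and Ccr2 in 1.

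Among the receptors of monocytes and macrophages, Ccr2 was the 1 gene called lower in mature dendritic-like cells. CCR2 binds CCL2, CCL7 and CCL12 and draws monocytes out of bone marrow and blood. It was at 446 CPM (428 to 464) in monocyte-like, 261 CPM (250 to 272) in macrophage-like, 31.4 CPM (21.9 to 43.7) in dermal dendritic-like and 27.2 CPM (11.7 to 53.6) in mature dendritic-like cells. The intervals of both dendritic groups overlap. The order was the same in both libraries, with 511, 281, 41.6 and 33.8 CPM at suffix 1 and 296, 180, 14.4 and 0 CPM at suffix 2. All 8 Ccr2 UMIs of the mature dendritic-like cells lay in 1 cell, which also held all 11 of their Ccr1 UMIs, 68 Ccr7 UMIs and 30062 UMIs in all, the most of the 21 cells. The log2 ratio of Ccr2 over the other myeloid cells was -3.56 (-4.77 to -2.58) in mature and -3.39 (-3.92 to -2.92) in dermal dendritic-like cells. When cells were assigned to marker lists 1 by 1, the mature dendritic-like range held 62 cells with Ccr2 at 170 CPM (145 to 200), and the log2 ratio of -0.92 was no longer called.

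Ccr1, a receptor for CCL3 and CCL5, was at 151 CPM (140 to 162) in monocyte-like and 146 CPM (138 to 155) in macrophage-like cells, with overlapping intervals. The order of these groups differed between the libraries, with 133 and 162 CPM at suffix 1 and 191 and 84.8 CPM at suffix 2. The log2 ratio of macrophage-like over the other myeloid cells was 0.80 at suffix 1 and -0.31 at suffix 2. It was at 37.4 CPM (18.7 to 66.9) in mature and 8.97 CPM (4.30 to 16.5) in dermal dendritic-like cells, and its log2 ratio in the latter was -3.72 (-4.78 to -2.84). Without the 1 cell named above, no UMI of Ccr1 or Ccr2 was left in mature dendritic-like cells.

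Cx3cr1, the receptor for the membrane-bound chemokine CX3CL1 and a label of patrolling monocytes and resident macrophages of several tissues, was low in each of the 4 named groups, with 309 UMIs over all cells. It was at 10.8 CPM (8.15 to 13.9) in monocyte-like, 9.27 CPM (7.35 to 11.5) in macrophage-like and 8.97 CPM (4.30 to 16.5) in dermal dendritic-like cells, and no 2 neighbours in this order differed beyond their intervals. No UMI was found in the mature dendritic-like cells. Since 3 counts there would be 10.2 CPM, close to the levels of the other groups, no difference from them could be shown at this depth.

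Cxcr4, the receptor for CXCL12, was found in all 4 groups. It was at 181 CPM (169 to 192) in monocyte-like, 163 CPM (120 to 216) in mature dendritic-like, 118 CPM (111 to 126) in macrophage-like and 39.5 CPM (28.7 to 53.0) in dermal dendritic-like cells. The mature dendritic-like interval overlaps those of its neighbours on both sides, and only the dermal dendritic-like level stood apart. Mature dendritic-like cells differed from the other myeloid cells by 0.19 (-0.25 to 0.60) on the log2 scale.

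**Figure D3:**
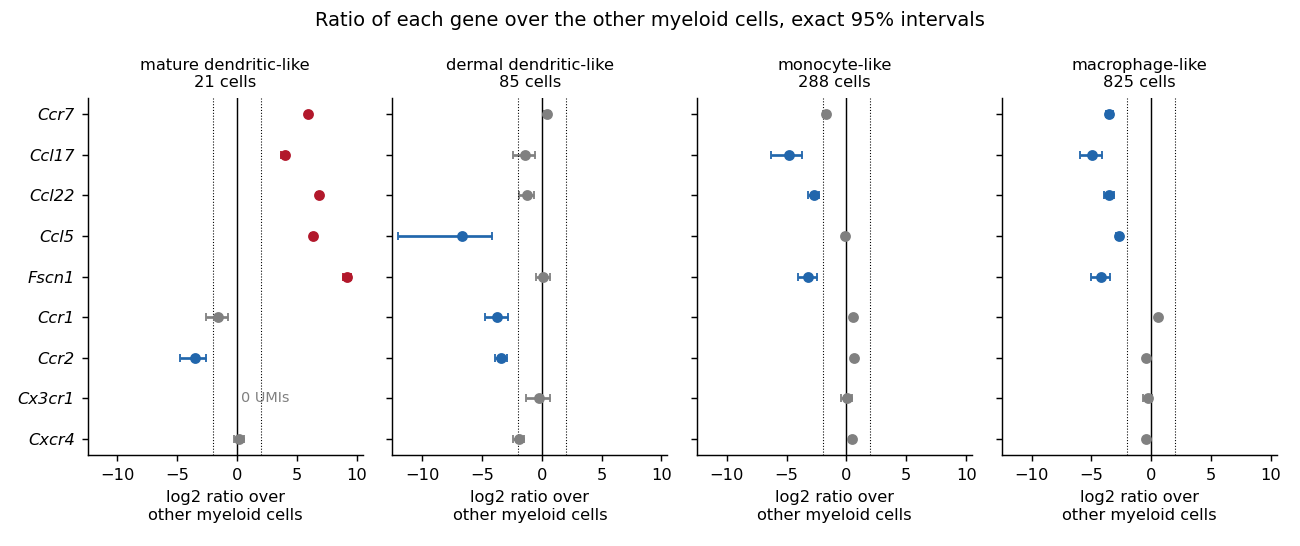
log2 ratio of each gene in a named group over all other myeloid cells, with exact 95% intervals, one panel per group. Red points are called at least 4-fold higher and blue points at least 4-fold lower, grey points neither, and dotted lines mark 4-fold. The 5 red points all lie in the mature dendritic-like panel, from 3.97 for Ccl17 to 9.17 for Fscn1.

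Dermal dendritic-like cells had none of the 9 genes at least 4-fold higher than the other myeloid cells, against 1.86% of all genes, and had 3 (Ccl5, Ccr1 and Ccr2) at least 4-fold lower, against 6.07%. Their median log2 ratio was -1.43 over the 9 genes and -0.22 over all genes. This reading depends on the cells they are set against, since the 21 mature dendritic-like cells hold 1162 of the 2806 myeloid Ccr7 UMIs and 479 of the 550 myeloid Fscn1 UMIs. Against the other myeloid cells without these 21, Fscn1 was called higher, by 3.64 (2.88 to 4.37) on the log2 scale, against 1.88% of all genes, and Ccr7 by 1.26 (1.02 to 1.49). In 20 of the 85 cells a Fscn1 UMI was found. The group also depended on the filter on cells. Of the 84 cells that took this name under the stricter filter, the log2 ratio was -4.91 for Ccr7, -3.95 for Fscn1 and -0.87 for Ccr2. In 226 cells under the looser filter it was -0.57 for Ccr7 and -1.25 for Ccr2, and in 331 cells assigned 1 by 1 it was 0.32 and -0.95. The call of Ccr2 as lower thus ended under these 3 alternatives.

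Monocyte-like cells had none of the 9 genes at least 4-fold higher, against 0.308% of all genes, and 3 (Ccl17, Ccl22 and Fscn1) at least 4-fold lower, against 0.977%. Ccr2 was higher by 0.66 (0.59 to 0.73), Ccr1 by 0.54 (0.42 to 0.66) and Cxcr4 by 0.43 (0.33 to 0.54) on the log2 scale. Set against the other myeloid cells without the mature dendritic-like cells, only Ccl17 remained at least 4-fold lower, against 0.818% of all genes, and Fscn1 was at 0.01 (-0.92 to 0.85).

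Macrophage-like cells had none of the 9 genes at least 4-fold higher, against 0.851% of all genes, and had the 5 genes highest in mature dendritic-like cells at least 4-fold lower, against 3.42%. These 2 comparisons share cells, because the mature dendritic-like cells are part of the reference. Without them, Ccr7, Ccl17 and Ccl22 were still called lower, with log2 ratios of -2.69, -4.70 and -2.21, against 3.20% of all genes, whereas Ccl5 (-1.68) and Fscn1 (-0.96) were not.

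The macrophage-like clusters differed from each other in their receptors. Ccr2 was at 382 CPM (363 to 402) in M0 (264 cells led by Fn1 and Retnla, named from the general macrophage markers) and at 27.6 CPM (20.5 to 36.2) in M3 (199 cells with 10 of 10 resident macrophage markers raised). Both libraries showed this gap, with 394 against 29.9 CPM at suffix 1 and 330 against 21.4 CPM at suffix 2. A pair of further clusters with 10 resident markers raised, M4 and M7, held Ccr2 at 269 and 247 CPM, but at suffix 2 alone they held 109 and 37.8 CPM, so a resident profile did not set 1 level of Ccr2. Ccr1 was at 337 CPM (303 to 373) in M7 and at 90.2 CPM (77.1 to 105) in M3. Cx3cr1 reached 184 CPM (140 to 238) in M12, a cluster of 44 cells led by Il1a and Rcan1 and named from the inflammatory macrophage markers, with 184 CPM at suffix 1 and 182 CPM at suffix 2. In M3 and M7 no Cx3cr1 UMI was found, which allows up to 1.62 and 2.81 CPM at 3 counts. Those 44 cells held 18.8% of all Cx3cr1 UMIs.

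**Figure D4:**
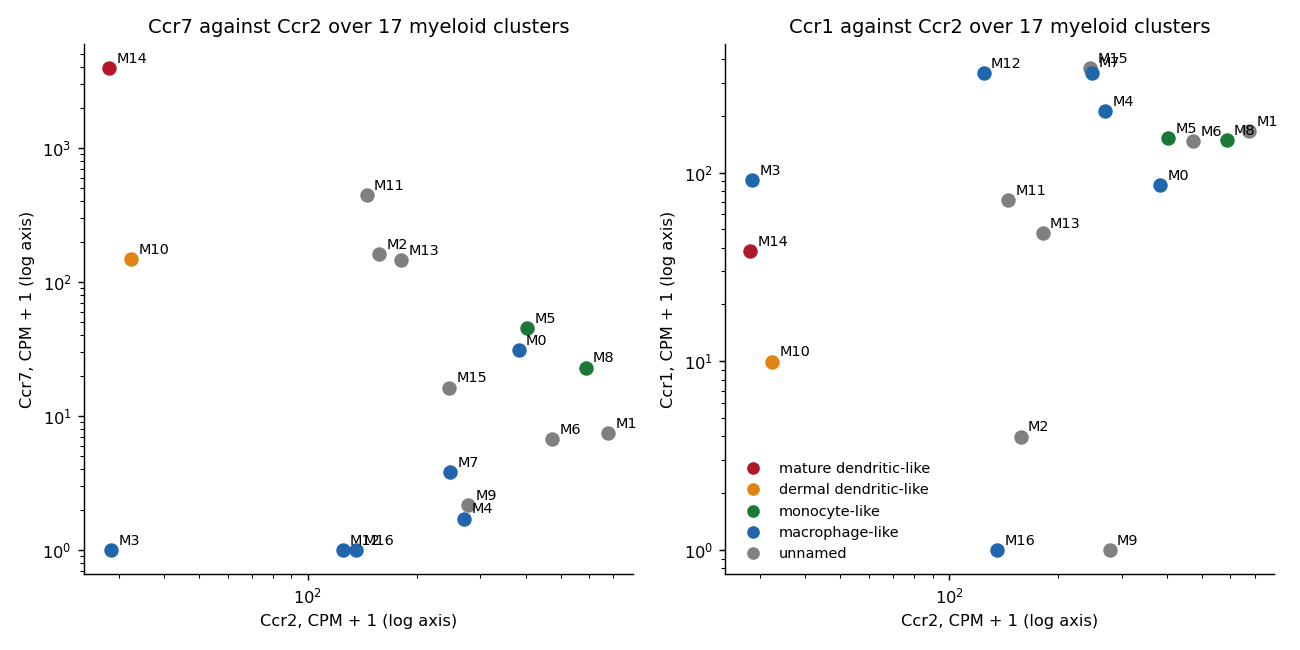
Ccr7 (left) and Ccr1 (right) against Ccr2 in each of the 17 myeloid clusters, as CPM + 1 on log axes, coloured by the name of the cluster. M14 (mature dendritic-like) combines the highest Ccr7 with one of the lowest Ccr2 levels, and M3, M10 and M14 are the clusters with Ccr2 under 40 CPM.

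The largest stores of Ccr7 and Ccl17 outside the mature dendritic-like group lay in clusters that took no name. M11 (74 cells) held Ccr7 at 445 CPM (406 to 487) and M2 (211 cells) at 160 CPM (147 to 174). M13 (33 cells in cycle, led by Hist1h2ap and Pclaf) held Ccr7 at 144 CPM (118 to 174), near the dermal dendritic-like level. Its 108 Ccr7 UMIs, 38 of them in 1 cell, were fewer than those of each of the dermal dendritic-like, monocyte-like and macrophage-like groups. M11 had 29 cells at suffix 1 and 45 at suffix 2, although suffix 2 gave only 444 of the 2038 myeloid cells. M2 had 159 and 52 cells and M13 had 29 and 4. In M11 the B cell markers at 20 CPM or more were 5 of 7, with a summed level of 439 CPM and Cd79a at 83.3 CPM, and 11 of 12 dermal dendritic markers were at that level too. The part of B cell RNA in this Ccr7 level was not tested. In M2 the dermal dendritic list led with 7 markers raised, but the name was withheld because more markers of another list stood among its leading genes. The dermal dendritic-like levels thus leave out these 211 cells. M2, led by Mmp12 and Klrb1b with Cd207 at 110 CPM and 10 of 12 dermal dendritic markers at 20 CPM or more, held 62.0% of all Ccl17 UMIs at 126 CPM (114 to 138). These lay in 39 of its 211 cells, with at most 53 UMIs in a cell. M2 held Ccl22 at 84.4 CPM (74.9 to 94.9), with 110 of its 282 UMIs in 1 cell, and Fscn1 at 0.599 CPM from 2 UMIs, so that Ccl17 was found there with almost no Fscn1. In M15, the Ccl17 level of 229 CPM came from 1 cell of 17.

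Cells with a Ccr7 UMI outside the mature dendritic-like group carried more RNA of the 15 mature dendritic markers than their neighbours without one, but far less than the mature group, in which it was 8340 CPM (8013 to 8677). The summed level was 2325 CPM (2155 to 2504) in 19 such dermal dendritic-like cells against 1339 CPM (1260 to 1421) in the other 66. In M11 it was 2349 CPM (2212 to 2493) in 31 cells against 937 CPM (862 to 1017) in 43. In M2 it was 1844 CPM (1748 to 1943) in 42 cells against 1446 CPM (1400 to 1493) in 169. Apol7c, the leading gene of the mature group, was at 0 in these Ccr7 cells of all 3. Il4i1, also among the 15, was higher in the Ccr7 cells of all 3. Il4i1 was at 183 against 16.0 CPM in dermal dendritic-like cells, 256 against 43.9 CPM in M11 and 41.0 against 3.48 CPM in M2. Cacnb3 was at 6.66 against 0, 2.15 against 0 and 7.94 against 0.387 CPM in the same order. In M13 it was at 0 in cells with and without a Ccr7 UMI. These Cacnb3 levels rest on few UMIs, so nothing is read from them. The remaining markers were not compared singly between cells with and without a Ccr7 UMI. The median depth of the cells with and without a Ccr7 UMI was 15182 and 11522.5 UMIs in dermal dendritic-like cells. It was 15400 and 14964 UMIs in M11, and 17605 and 14845 UMIs in M2. The gap was wider in monocyte-like cells, at 30564 and 13963 UMIs, and in macrophage-like cells, at 17899 and 9676 UMIs. M13 went the other way, with 21169 and 22124.5 UMIs. A deeper cell shows a UMI more often, and the part of depth in the difference in marker RNA was not tested.

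**Figure D5:**
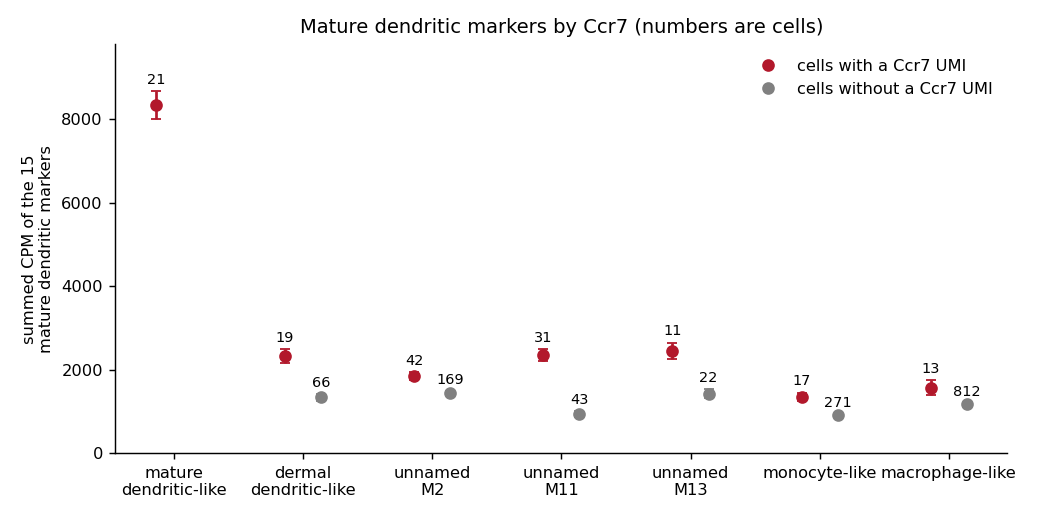
Summed CPM of the 15 mature dendritic markers, with exact 95% Poisson intervals, in cells with (red) and without (grey) a Ccr7 UMI in the mature dendritic-like group and 6 other groups or clusters. The number above each point is the count of cells. In each of the 6 the red point lies above the grey one, and both lie far under the 8340 CPM of the mature dendritic-like cells.

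Shares of cells with a UMI were compared after each cell was thinned to 2000 UMIs. Ccr7 was then found in 90.5% (69.6 to 98.8) of mature dendritic-like, 9.41% (4.15 to 17.7) of dermal dendritic-like, 2.82% (1.22 to 5.47) of monocyte-like and 0.881% (0.355 to 1.81) of macrophage-like cells. Without thinning the shares were 100%, 22.4%, 5.90% and 1.58%. In keratinocyte-like cells, which should lack the gene, 0 of 66 thinned cells held one, which allows up to 4.55%, and without thinning the share there was 4.41%. The thinned macrophage-like and monocyte-like shares lie under that limit, so nothing is read from them. Ccr2 was found in 55.3% of monocyte-like and 28.8% of macrophage-like cells after thinning, and in 3.53% of dermal dendritic-like cells, against 0.699% of fibroblast-like and 3.10% (1.25 to 6.28) of endothelial-like cells, so nothing is read from the dermal dendritic-like share. The thinned share of Fscn1 was 7.06% in dermal dendritic-like and 9.09% in keratinocyte-like cells. Without thinning, 18 keratinocyte-like cells held Fscn1, with up to 36 UMIs in a cell. They thus give no floor for this gene, and nothing is read from the dermal dendritic-like share. The groups had median depths of 14159, 13096, 14376.5 and 9692 UMIs in the order above, keratinocyte-like cells 22854.5 and fibroblast-like cells 13036 UMIs.

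Langerhans cells are the dendritic cells of the epidermis. With the main filter, they could be described only by giving each myeloid cell to the marker list with its highest mean scaled expression. This put 120 cells in a Langerhans-like range, 26 of them within 0.1 of another list. In them Cd207 was at 353 CPM and Epcam at 49.3 CPM. The dermal dendritic markers Mgl2 and Cd209a were higher there, at 1259 and 763 CPM, and C1qa was at 296 CPM. Of the 120 cells, 30 lay in M2 and 19 in M9, so their levels cannot be read as those of Langerhans cells alone. The 120 cells held Ccl17 at 207 CPM (185 to 232), higher by 3.83 (3.60 to 4.05) than the other myeloid cells, with 206 and 212 CPM at suffix 1 and 2. The 62 mature dendritic-like cells of the same assignment held it at 183 CPM (156 to 213), with 162 and 232 CPM at suffix 1 and 2. These pooled intervals overlap. In the 120 cells Ccr7 was at 62.6 CPM, but at 15.9 CPM at suffix 1 and 248 CPM at suffix 2, and Fscn1 was at 3.33 CPM. With a looser filter on cells a Langerhans-like cluster of 42 cells did form, but its Ccl17 was at 1.90 CPM from 1 UMI and its Ccr7 at 19.0 CPM. The 2 definitions thus disagree on Ccl17.

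Over the 32 clusters with at least 100000 UMIs, myeloid or not, some of the members had like patterns on the scale of log2(CPM + 10). Pearson's r was 0.91 between Ccr7 and Ccl22, 0.77 between Ccl22 and Ccl17, 0.90 between Ccr2 and Cxcr4 and 0.75 between Ccr1 and Ccr2, but -0.56 between Ccr2 and Fscn1. Fscn1 had r of only 0.21 with Ccr7, 0.29 with Ccl22, 0.20 with Ccl17 and 0.15 with Ccl5. Ccl5 had r of 0.61 with Ccr7, 0.67 with Ccl22 and 0.32 with Ccl17, and 0.60 with Cxcr4. The 5 genes highest in mature dendritic-like cells thus did not form 1 set on this measure. These values describe clusters that share 2 libraries and differ in depth. M14 was the highest cluster for Ccr7, Ccl17, Ccl22, Ccl5 and Fscn1, and how much of their values it carries was not tested. Of all genes that are neither members nor related genes, those most like Ccr7 were Strip2 (0.94), Klri2 (0.94) and Mmp25 (0.93), a membrane-bound matrix metalloproteinase. Klri2 (0.93), Strip2 (0.92) and Gm13546 (0.88) were most like Ccl22. Gm13546 (0.81), Rogdi (0.77) and 4930404N11Rik (0.76) were most like Ccl17. Tnfrsf9 (0.82), Il21r (0.81) and Gbp8 (0.80) were most like Ccl5, and Fah (0.86), Cd200 (0.81) and Adcy6 (0.81) most like Fscn1. Tnfrsf9 and Cd200 are among the 15 mature dendritic markers. Even in their highest cluster, the 21 cells of M14, 4930404N11Rik and Gbp8 reached only 13.6 CPM and Fah 17.0 CPM. These 3 likenesses thus rest on few UMIs. Ccr1 was most like Tbxas1 (0.94), C5ar1 (0.93) and C1qb (0.92), the last 2 of them markers of the macrophage list used for naming, and Ccr2 most like Myo1f (0.96), AB124611 (0.95) and Vav1 (0.95). Cx3cr1 had weaker likeness, to Gdf3 (0.77), Gm5086 (0.77) and Arhgap4 (0.76), and Cxcr4 was most like AI662270 (0.94), Fam49b (0.94) and Arhgap30 (0.94).

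Of 9 genes of dendritic cell maturation, 4 were at least 4-fold higher in mature dendritic-like cells and none lower, against 3.36% and 5.2% of all genes, with a median log2 ratio of 1.28 over the list. They were Il15ra, which presents IL-15, at 64.6 against 2.70 CPM, Cd40, a receptor for T cell help, at 381 against 57.1 CPM, and the PD-1 ligand genes Cd274 at 364 against 67.4 CPM and Pdcd1lg2 at 44.2 against 9.38 CPM. Pdcd1lg2 was also higher in dermal dendritic-like cells, at 52.0 against 7.85 CPM, where 1 of the 9, Il15, was lower (1.86% and 6.07% of all genes). None was called in monocyte-like cells, and 1 was lower in macrophage-like cells (3.42% of all genes).

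Of 17 genes of cell movement and adhesion, 2 were higher and 2 (Itgb2 and Mmp9) lower in mature dendritic-like cells, against 3.36% and 5.2% of all genes, with a median log2 ratio of 0.12. Gpr183, a receptor for oxysterols that guides dendritic cells and lymphocytes, was at 751 against 61.6 CPM, and Ptger4, a receptor for prostaglandin E2, at 224 against 37.3 CPM. In dermal dendritic-like cells 1 was higher, again Gpr183, at 354 against 56.5 CPM, and 3 were lower, against 1.86% and 6.07%. In macrophage-like cells 1 was higher, the gelatinase gene Mmp9 at 115 against 17.0 CPM, and 1 was lower, against 0.851% and 3.42%, and none was called in monocyte-like cells.

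Of the 12 ligands of the member receptors 10 were tested, and 8 of them were lower in mature dendritic-like cells and 7 in dermal dendritic-like cells, against 5.2% and 6.07% of all genes, none higher. The median log2 ratios were -3.93 and -2.40. In macrophage-like cells 2 were higher, Ccl8 at 4669 against 745 CPM and Ccl3 at 387 against 92.2 CPM, against 0.851% of all genes, none lower, and in monocyte-like cells none was called. Of 17 other chemokine receptors 7 were tested. In mature dendritic-like cells 1 was higher and 2 were lower, against 3.36% and 5.2% of all genes. In dermal dendritic-like cells 1 was higher and 1 lower, against 1.86% and 6.07%. The gene higher in both was Ackr1, which binds chemokines without signalling, at 17.0 and 10.8 CPM from only 5 and 12 UMIs. None was called in monocyte-like or macrophage-like cells.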

How the data were processed

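Sorted skin cells of 2 libraries (10x Genomics 3′ single-cell RNA-seq), 1 for each age of 9 and 108 weeks with 2 mice pooled in each, were analysed. The authors deposited 1 matrix of raw UMI counts per gene and barcode, with no normalization, made with Cell Ranger 4.0.0 on mm10 according to the submitters' processing notes. The gene annotation they counted on is not named there.

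Of 5257 barcodes (56204601 UMIs), cells with at least 500 genes, 1000 UMIs and at most 10% mitochondrial UMIs were kept, which removed 1149 barcodes over the mitochondrial limit among others. Cells were clustered with scanpy 1.11.5 and leidenalg 0.10.2 under Python 3.11.15 (2000 variable genes without the 9 members and 55 related genes, 30 principal components, 15 neighbours, resolution 1). Clusters were named from 21 marker lists. A marker counted as raised at 20 CPM and 2 times the reference or more. At least 3 raised markers were needed, and the leading list had to exceed the next by 0.3. A myeloid cluster with no list at 3 raised markers could be named from the macrophage markers over the median of all clusters, as M0 was. A leading list gave no name where more markers of another list stood among the 10 leading genes (M2 and M6). It also gave none where 5 or more of these were leading genes of cells outside the myeloid compartment (M15). This naming rule was set after the clusters were seen. Scrublet called 6 of 3797 cells, too few to have worked, so doublets were not removed.

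Counts were summed per group. Levels are CPM with exact Poisson intervals, and shares have Clopper-Pearson intervals (scipy 1.17.1), both at 95%. Ratios over the other myeloid cells were computed for all 11050 genes with at least 30 myeloid UMIs, and a gene was called at 4-fold with its interval on 1 side of 0. A group at 0 was set to 3 counts for the ratio. The ratio step was run on simulated UMI sums with counting error only, which is also what the intervals assume. All 200 genes changed 8-fold were called in each group. This run checks the calculation and cannot cover spread between cells. The named genes are the 9 members, related genes at least 4-fold higher in a named group (up to 5 per list) and the 3 genes most like each member. The members, lists and markers were chosen with earlier results of these data known. The alternatives were other cell filters, clusterings, libraries, fold limits and an assignment cell by cell. A further pair, which leaves the mature dendritic-like cells out of the reference or drops the cell with most UMIs of a gene, was chosen after seeing the data.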

Additional observations from a re-analysis of the deposited data

How the results depend on the processing

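The same 5 genes were called higher in mature dendritic-like cells under all 11 alternatives for cells and groups and all 3 for counting, with 5 (library with suffix 2 alone) to 62 cells in the group. Their log2 ratios ranged from 4.01 to 6.42 for Ccr7, 2.83 to 4.16 for Ccl17, 4.38 to 7.10 for Ccl22, 3.71 to 6.82 for Ccl5 and 7.57 to 9.81 for Fscn1. The share of all genes called there ranged from 1.35% (149 genes) at 8-fold to 7.05% (779 genes) at 2-fold, with 206 genes under the stricter filter, 173 when cells were assigned 1 by 1 and 555 with no minimum of UMIs, against 371. A gene called higher was not always highest. With cells assigned 1 by 1, Ccl17 was at 207 CPM in Langerhans-like and 183 CPM in mature dendritic-like cells, with overlapping intervals.

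The members called lower there numbered 3 under the stricter filter (4.45% of all genes), 2 as a mean over cells (5.67%) and 2 at 2-fold (11.3%), against 1 (5.2%). When cells were assigned 1 by 1, Ccr2 was not among them (log2 ratio -0.92), nor was it in dermal dendritic-like cells (-0.95). In dermal dendritic-like cells 5 were lower with 1000 variable genes (6.08% of all genes), 5 in the library with suffix 1 (5.59%) and 6 at 2-fold (13.99%), against 3 (6.07%). Under the stricter filter Ccr7 turned there from 0.44 to -4.91 and Ccr2 was no longer called (-0.87). With a looser filter 1 (Cx3cr1) was higher in monocyte-like cells (1.43% of all genes), against 0 (0.308%). At resolution 2, 3 were lower in macrophage-like cells (2.42%), against 5 (3.42%). Without the mature dendritic-like cells in the reference, 1 was higher in dermal dendritic-like cells, 1 lower in monocyte-like and 3 lower in macrophage-like cells, and Fscn1 in monocyte-like cells had a log2 ratio of 0.00686 in place of -3.23, since 479 of its 550 myeloid UMIs lay in the cells left out. The cause of the other differences was not tested.

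Of 414 single log2 ratios under alternatives, 230 stayed within the interval given above, and 39 changed sign, 1 of them a called ratio (Fscn1 above). Among the others, Ccr1 in macrophage-like cells was -0.31 at suffix 2 against 0.60, and their Cxcr4 and Ccr2 turned positive under the stricter filter (0.42 and 0.11, against -0.40 and -0.41). No dermal dendritic-like cluster formed at resolution 0.5 or with the largest set of variable genes. With 294123 UMIs in the mature dendritic-like cells, a level under 10.2 CPM was not detectable there. No paired analysis was possible because each age has 1 library and the barcode suffixes are not tied to ages.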
